A study of Mus musculus with 8 samples.

Results

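The genes described here encode the nuclear-encoded subunits of oxidative phosphorylation, the 5 protein complexes of the inner mitochondrial membrane. They were chosen by name and level. Names starting with Ndufa, Ndufb, Ndufc, Ndufs, Ndufv, Uqcr, Sdh, Cox4 to Cox8 or Atp5 were taken, Ndufaf names were left out, and a row had to reach 1 FPKM (fragments scaled by the length of the transcript and the total of the library) in at least 2 libraries. Of 88 rows with such a name, 79 passed, among 23746 rows in each gene table and 9782 rows that could be tested. By complex these were 35 rows of complex I, 4 of complex II, 8 of complex III, 12 of complex IV and 15 of complex V. The remaining 5 (Sdhaf1, Sdhaf2, Cox7a2l, Atp5sl and Cox4nb) match by name but encode no subunit, and they are kept apart throughout. All but Cox7a1 were at 1 FPKM or more in all 8 libraries, so the limit on low values selected almost nothing by group.

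The cells were CD8+ T cells of BALB/c mice that bound the AH1 tetramer, a reagent for T cells that recognize an endogenous retroviral antigen of several BALB/c tumour lines. The design crossed genotype with sorted subset. The wild type and Cd69-/- mice (called Cd69-deficient here) each gave a stem-like subset and a subset labelled term diff, written term-diff. Each of the 4 groups held 2 libraries made from total RNA. Sort gates, age, sex, the number of mice behind a library and whether libraries share a mouse are not given in the sources used here. The p-values below therefore measure the spread between these libraries, which may be technical. In bulk libraries such as these, fewer cells of a kind and less RNA per cell cannot be told apart.

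Oxidative phosphorylation moves electrons from NADH (complex I) and succinate (complex II) through ubiquinol and cytochrome c (complex III) to oxygen (complex IV). Complexes I, III and IV pump protons as they do so, and complex V, the ATP synthase, uses the returning protons to make ATP. Most subunits are encoded in the nucleus and a small core in mitochondrial DNA, and the mitochondrially encoded genes have no row in these tables. In T cells, respiration supports long-lived memory and progenitor cells, and its failure is a known feature of terminally exhausted CD8+ T cells.

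The target of the knockout checked the genotype labels. Cd69 was at 22.5 and 23.4 FPKM in wild-type stem-like and at 10.4 and 12.9 in wild-type term-diff libraries. In Cd69-deficient mice the stem-like libraries stood at 3.69 and 2.42 FPKM and the term-diff libraries at 2.21 and 2.43, below every wild-type library. The CD8+ identity held as well: the summed level of Cd3d, Cd3e, Cd3g, Cd8a and Cd8b1 lay between 791 and 1198 FPKM in all 8 libraries, while the 4 B cell markers summed to at most 0.773 and the 2 neutrophil markers to at most 0.618. Confidence limits in the tables imply 2055400 to 2591060 fragments a library, of which the 79 rows took 0.377% to 0.514%. At the median a row rested on 76.2 fragments a library, a counting error of 11.5%, and 52 of the 79 averaged under 100. Rows of small RNA held 63.7% of the FPKM in wild-type stem-like library 2 and 56.1% in wild-type term-diff library 2, against 78.1% to 84.5% in the other 6.

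Levels per length differed widely between subunits and little between libraries. Complex V had the highest median of its rows' mean levels, 34.2 FPKM, followed by complex IV at 23.0, complex III at 17.6, complex II at 13.2 and complex I at 11.5. The most abundant row of all was Cox6c, a small structural subunit of cytochrome c oxidase, at a mean of 163 FPKM. Atp5h, in the peripheral stalk of ATP synthase, averaged 117 FPKM, and Uqcrh, the hinge protein of complex III, 69.8. Within complex I the range ran from Ndufa11 at 1.82 FPKM to Ndufa6 at 41.4. In complex II the range was narrow, from 8.78 FPKM for the membrane anchor Sdhd to 16.7 for the iron-sulfur subunit Sdhb.

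**Figure D1:**
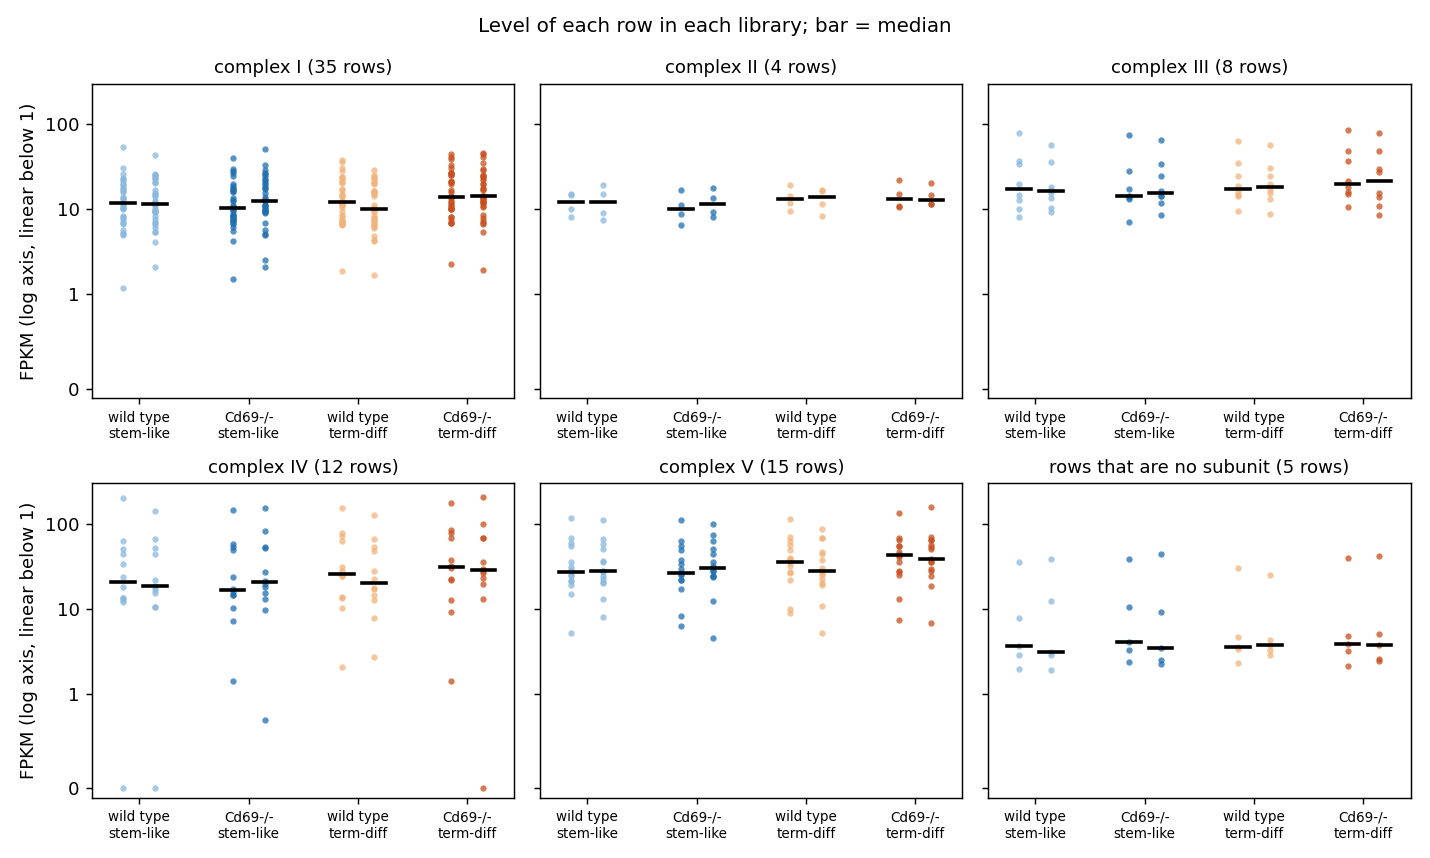
FPKM of each row (points) in each of the 8 libraries, by complex, with the median as a bar; the axis is logarithmic above 1 and linear below. The bars of complexes I, III, IV and V stand highest in the 2 Cd69-deficient term-diff libraries, where the median of complex V was 43.1 and 38.6 FPKM against 26.6 to 35.9 in the other 6.

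Isoforms known mainly from other tissues were nearly absent. Cox4i2, Cox6a2, Cox6b2, Cox7b2, Cox8b, Cox8c and Ndufa4l2 did not reach the limit, with 1.60 FPKM for Cox8b in 1 library as their highest value, while their widely expressed partners did: Cox4i1 averaged 72.3 FPKM, Cox6a1 28.7, Cox6b1 21.8, Cox7b 24.4, Cox8a 55.1 and Ndufa4 15.1. Among the 3 genes that encode the same mature c subunit of ATP synthase, Atp5g2 supplied 44.5% to 54.2% of the summed FPKM, Atp5g3 36.0% to 42.9% and Atp5g1 8.03% to 15.7% in a library. The ranges did not overlap, so the order was the same in all 8 libraries. The 2 other rows under the limit were Atp5s and Ndufs5. Ndufs5, a complex I subunit, was listed at 0.152 FPKM or less in every library. How reads shared with pseudogenes were assigned is not given in the sources used here, which bears on Ndufs5 and on other short subunits with such copies.

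In wild-type cells, with all libraries kept, the median subset difference of the oxidative phosphorylation rows lay close to that of all genes. Differences are given as term-diff minus stem-like on the log2(FPKM + 1) scale ± standard error, a scale that understates changes of low rows. The median difference of the 79 rows was 0.03, beside 0.06 for all genes tested, and 47 of 79 lay above 0. By complex, from I to V, medians were 0.03, 0.21, -0.06, 0.19 and 0.07. Without wild-type term-diff library 2 they were 0.11, 0.27, -0.03, 0.35 and 0.30, beside 0.04 for all genes. At an adjusted p under 0.05, 3 of the 79 changed, against a background of 13.1% of all genes (7.24% higher and 5.83% lower), in 2-sided tests by limma across all genes. The 3 were 2 higher and 1 lower. That split became 2 and 3 with quantile normalization and 2 and 2 with libraries set to an equal sum outside small RNA. Shares of all genes called under those alternatives are not given here.

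Sdhaf1, which helps insert iron-sulfur clusters into Sdhb, was lower in term-diff cells of both genotypes. It was at 7.88 and 12.2 FPKM in wild-type stem-like and at 4.64 and 4.31 in wild-type term-diff libraries, a fall of -0.99 ± 0.18 (adjusted p = 0.0111). In Cd69-deficient cells it was at 10.7 and 9.28 FPKM in stem-like and 4.85 and 5.01 in term-diff libraries, a fall of -0.88 ± 0.18 (adjusted p = 0.0216). The groups did not overlap in either genotype. No other of the 79 rows was called lower in any comparison.

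Ndufa13, an accessory subunit of complex I also known as a regulator of cell death, was the only subunit called higher in term-diff cells of both genotypes. Its 4 stem-like libraries lay at 16.0, 15.7, 17.6 and 17.7 FPKM and its 4 term-diff libraries at 23.9, 23.0, 26.6 and 23.2. The difference was 0.54 ± 0.11 in wild-type (adjusted p = 0.0195) and 0.47 ± 0.11 in Cd69-deficient cells (adjusted p = 0.0387). Cox7a1, the muscle-type form of a complex IV subunit, was listed at 0 in both wild-type stem-like libraries and at 2.05 and 2.70 FPKM in wild-type term-diff. That call (1.75 ± 0.37, adjusted p = 0.0195) rests on at most 4 fragments a library. In Cd69-deficient cells Cox7a1 was at 1.43 and 0.727 FPKM in stem-like and at 1.43 and 0 in term-diff libraries, which overlap.

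Wild-type calls rested on 2 libraries a group, so leaving out 1 of them left its group with a single library. Ndufa13 and Cox7a1 lost their calls when any 1 of the 4 wild-type libraries was left out. Sdhaf1 lost its call without wild-type term-diff library 2. Shares of all genes called in the same fits are not given here. These losses therefore do not show whether calls changed for these rows more than for genes at large. Ndufa6, an accessory subunit of complex I, was at 54.0 and 43.1 FPKM in wild-type stem-like and 36.1 and 23.7 in term-diff libraries (-0.70 ± 0.21, adjusted p = 0.0687). Cox7a2l, a factor that joins complexes III and IV, was at 35.8 and 39.0 against 30.6 and 25.04 in the same libraries (-0.42 ± 0.14, adjusted p = 0.0966). Neither passed the test.

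In Cd69-deficient cells most subunits were higher in the term-diff subset than in the stem-like subset. The median difference was 0.28, beside -0.03 for all genes tested, and 68 of 79 rows lay above 0, against 45.9% of all genes. Of the 79, 12 rose and Sdhaf1 fell, against a background of 9.45% called among all genes (3.88% higher and 5.56% lower). At least 1 subunit rose in each complex. With no overlap between the 2 libraries of each subset, 49 rows were higher and 3 lower, where 24.5% and 32.4% of all genes were.

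**Figure D2:**
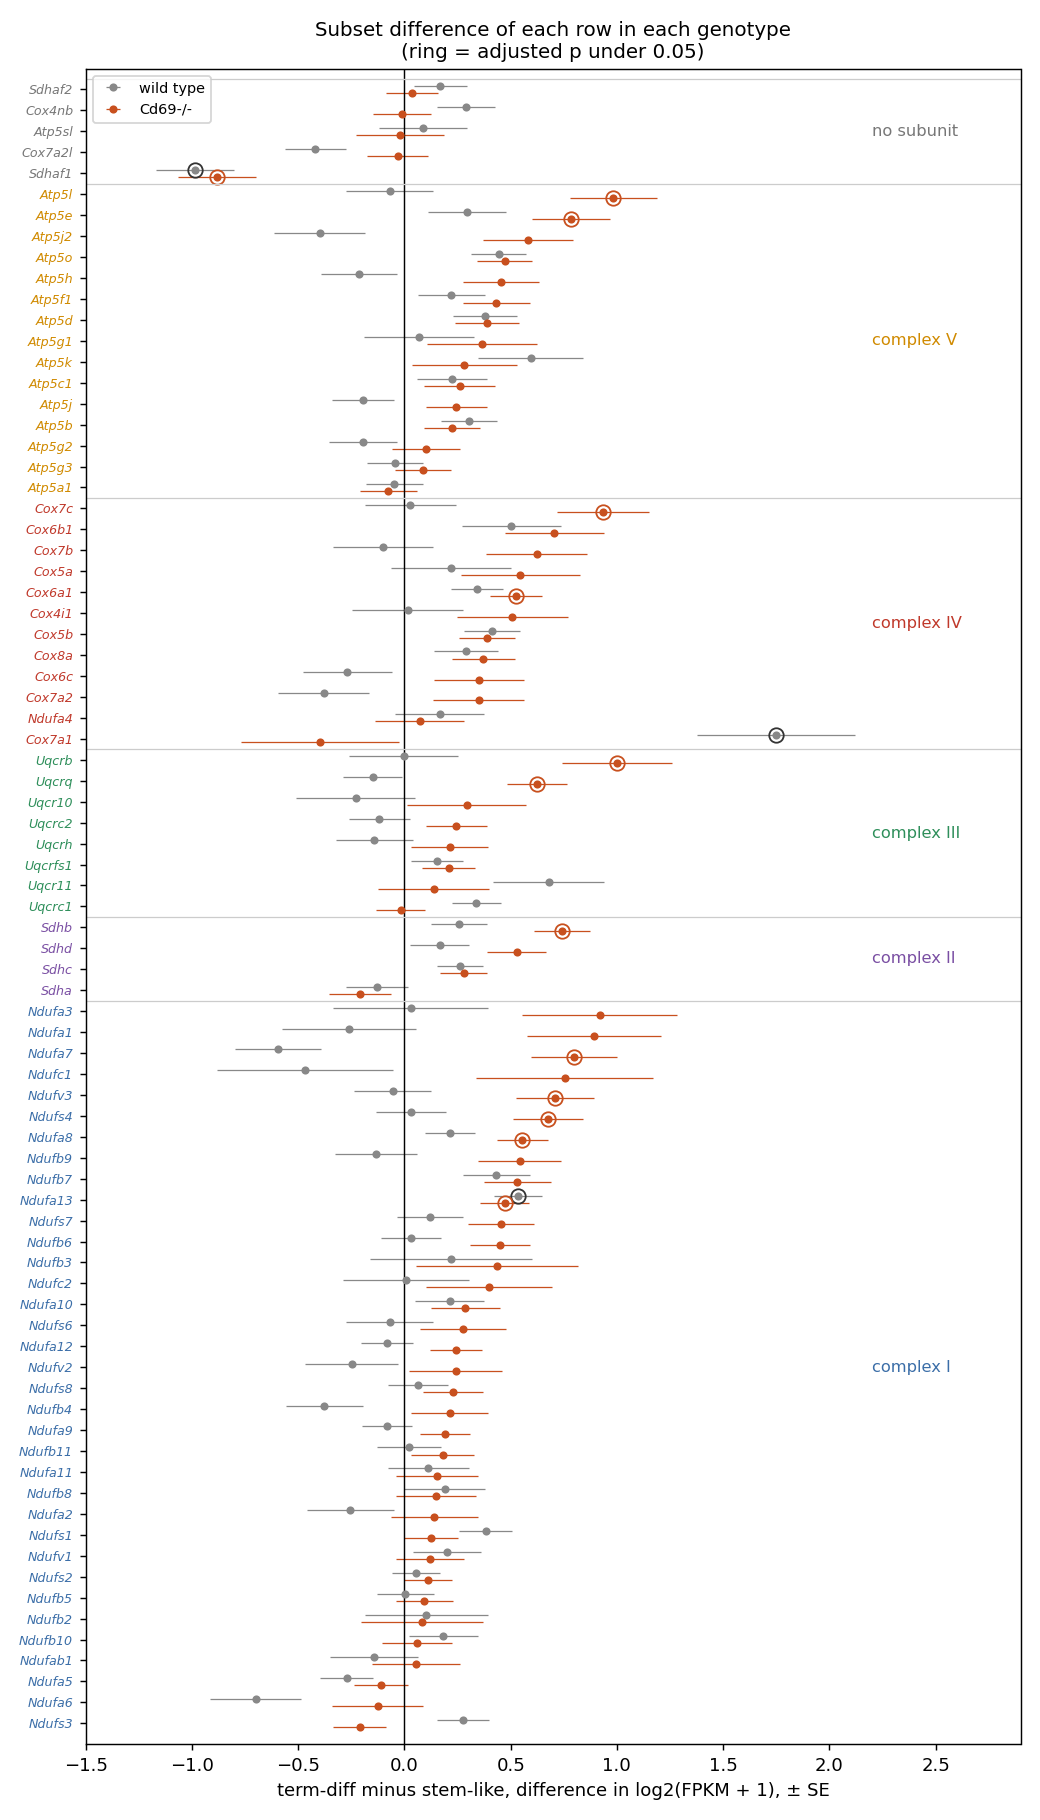
Difference between term-diff and stem-like cells for each of the 79 rows, as log2(FPKM + 1) ± SE, in wild type (grey) and Cd69-deficient cells (orange), grouped by complex; a ring marks an adjusted p under 0.05. Most orange points lie right of 0 (68 of 79) and most ringed points are orange (13 of 16), while grey points lie on both sides of 0.

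Complex I feeds electrons from NADH into the chain. Of its 35 rows, 5 rose in Cd69-deficient term-diff cells, all of them accessory subunits, and 32 lay above 0, with a median of 0.24. The 28 accessory subunits had a median of 0.28 and the 7 nuclear-encoded core subunits, which carry the redox centres, 0.13. Accessory and core subunits were not matched for mRNA length, which moved with the differences, as described below. Ndufv3, an accessory subunit at the NADH-oxidizing tip, was at 17.7 and 25.5 FPKM in wild-type stem-like, 19.9 and 24.4 in Cd69-deficient stem-like, 21.3 and 19.6 in wild-type term-diff and 38.4 and 34.9 in Cd69-deficient term-diff libraries. The last group stood above the other 6 libraries, which overlapped one another. Its rise over Cd69-deficient stem-like cells was 0.71 ± 0.18 (adjusted p = 0.0473).

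Ndufs4, whose loss causes a Leigh-like disease in mice, followed the same order. It was at 7.25 and 9.22 FPKM in Cd69-deficient stem-like and at 14.01 and 13.3 in Cd69-deficient term-diff libraries, and at 7.62 to 10.1 in the 4 wild-type libraries (rise of 0.67 ± 0.16, adjusted p = 0.0398). Ndufa8 went from 11.3 and 10.8 to 15.8 and 17.6 FPKM between the Cd69-deficient subsets (0.55 ± 0.12, adjusted p = 0.0251), with 9.22 to 12.003 in wild-type libraries. Both genes had their 2 highest libraries in Cd69-deficient term-diff. Ndufa7 differed from these. It was at 10.4 and 11.5 FPKM in wild-type stem-like, 8.36 and 5.09 in Cd69-deficient stem-like, 7.57 and 6.31 in wild-type term-diff and 11.2 and 13.1 in Cd69-deficient term-diff libraries. Its subset difference was 0.80 ± 0.20 in Cd69-deficient (adjusted p = 0.0451) and -0.59 ± 0.20 in wild-type cells (adjusted p = 0.0962), and its 5.09 FPKM stood on 11.9 fragments.

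Larger differences than these were not always called. Ndufa3 had the largest rise in complex I between the Cd69-deficient subsets, 0.92 ± 0.36 (adjusted p = 0.16), with 13.6 and 29.1 FPKM in the stem-like and 33.4 and 44.6 in the term-diff libraries. The spread within the stem-like pair is visible in these values. At the other end, the core subunit Ndufs3 was at 8.21 and 9.14 FPKM in stem-like and 6.92 and 7.79 in term-diff cells of Cd69-deficient mice, and at 7.86 and 8.34 against 10.7 and 9.39 in wild type. Neither difference passed (-0.21 ± 0.12, adjusted p = 0.338, and 0.28 ± 0.12, adjusted p = 0.19).

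Complex II, succinate dehydrogenase, is also an enzyme of the tricarboxylic acid (TCA) cycle. Sdhb, which passes electrons through its iron-sulfur clusters (mm10, chr4:140961271-140979192), had the lowest adjusted p of all 79 rows in Cd69-deficient cells. It was at 11.2 and 13.4 FPKM in Cd69-deficient stem-like and at 22.2 and 20.2 in Cd69-deficient term-diff libraries, and at 15.04 and 15.04 against 19.5 and 16.9 in wild type. The 2 Cd69-deficient stem-like libraries were the lowest of all 8 and the 2 Cd69-deficient term-diff libraries the highest. The rise was 0.74 ± 0.13 (adjusted p = 0.0113) in Cd69-deficient cells, and the wild-type difference, 0.26 ± 0.13, did not pass (adjusted p = 0.25). The membrane anchor Sdhd came close to the threshold in Cd69-deficient cells (0.53 ± 0.14, adjusted p = 0.0508), while the anchor Sdhc was at 0.28 ± 0.11 and the flavoprotein Sdha, which oxidizes succinate, at -0.21 ± 0.15 (adjusted p = 0.156 and 0.424).

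Complex III passes electrons from ubiquinol to cytochrome c. Uqcrb, a small subunit at the ubiquinone-binding site, was at 17.5 and 14.5 FPKM in Cd69-deficient stem-like and at 36.5 and 29.6 in Cd69-deficient term-diff libraries, the largest difference of any row called there (1.00 ± 0.26, adjusted p = 0.0479). In wild type it was at 33.7 and 18.0 in stem-like and 24.4 and 24.9 in term-diff libraries, so wild-type stem-like library 1 reached the Cd69-deficient term-diff range. Uqcrq was at 28.0 and 34.4 FPKM in Cd69-deficient stem-like and at 47.9 and 48.8 in Cd69-deficient term-diff libraries, with 30.1 to 36.5 in wild type (rise of 0.62 ± 0.14, adjusted p = 0.029). Differences of the large core proteins were smaller, though the rows were not matched for mRNA length. Uqcrc1 was at -0.02 ± 0.12 and Uqcrc2 at 0.24 ± 0.14 between the Cd69-deficient subsets, and neither passed.

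Complex IV, cytochrome c oxidase, reduces oxygen. Its 12 rows had a median difference of 0.45 in Cd69-deficient cells, beside 0.19 in wild type. The former was 0.29 with quantile normalization and 0.13 with the trend over mRNA length removed. Cox7c, a small structural subunit, was at 10.4 and 12.9 FPKM in the stem-like and 22.6 and 23.4 in the term-diff libraries of Cd69-deficient mice, with 10.6 to 17.9 in wild type (rise of 0.93 ± 0.21, adjusted p = 0.0323). Cox6a1 was at 24.02 and 26.9 FPKM against 38.0 and 36.0 in the same pair of groups (0.52 ± 0.12, adjusted p = 0.0353). In wild type Cox6a1 was at 23.9 and 21.9 in stem-like and 31.0 and 27.7 in term-diff libraries, a difference in the same direction that did not pass (0.34 ± 0.12, adjusted p = 0.113). The lone row below 0 was Cox7a1.

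Complex V makes ATP. Atp5l, subunit g of the membrane part, where the enzyme forms dimers, was at 22.2 and 27.6 FPKM in Cd69-deficient stem-like and at 46.6 and 53.5 in Cd69-deficient term-diff libraries, with 25.1 to 35.6 in wild type. Its rise was 0.98 ± 0.20 (adjusted p = 0.021). Atp5e, the epsilon subunit of the central stalk, was at 25.5 and 35.4 FPKM against 54.6 and 50.4 in the same groups (0.78 ± 0.18, adjusted p = 0.0345). The catalytic subunits lay closer to 0. Atp5a1, the row with the deepest coverage at 1110 fragments or more a library, was at -0.08 ± 0.13, and Atp5b at 0.22 ± 0.13. By structural part, the median in Cd69-deficient cells was 0.58 for the 3 membrane accessory subunits, 0.44 for the 4 of the peripheral stalk, 0.26 for the 5 of the head and central stalk and 0.10 for the 3 c subunits. The mRNAs of complex V ran from 371 nucleotides (nt) for Atp5k to 4715 nt for Atp5g1, and differences moved with length, as described below. The parts were not matched for length, and its part in their order was not tested.

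**Figure D3:**
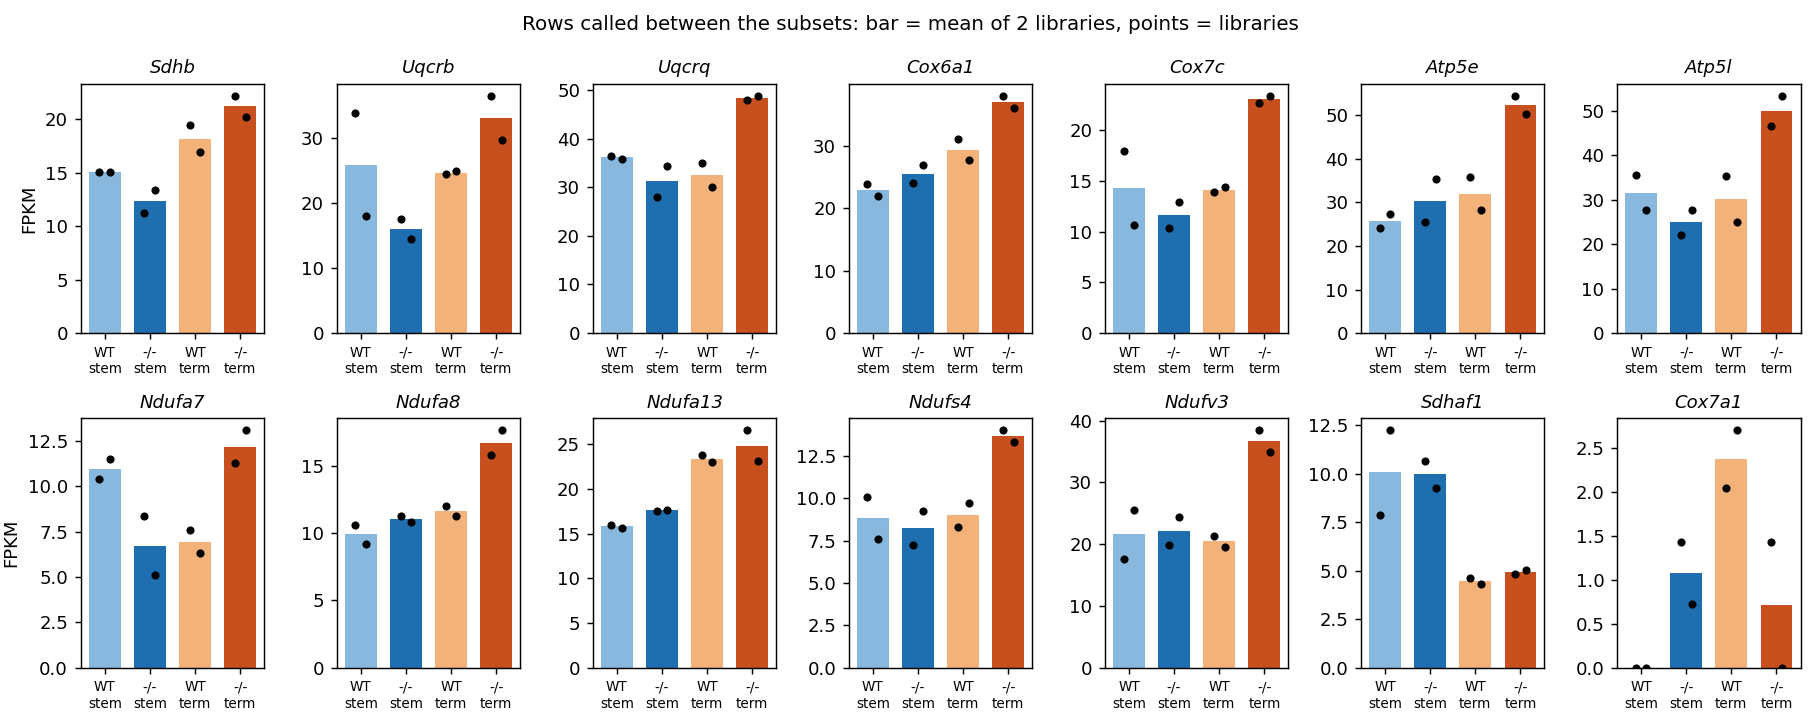
FPKM of the 14 rows called between the subsets in either genotype: bars are means of 2 libraries and points are the libraries (WT, wild type; -/-, Cd69-deficient). For 9 of these genes (Sdhb, Uqcrq, Cox6a1, Cox7c, Atp5e, Atp5l, Ndufa8, Ndufs4 and Ndufv3) both Cd69-deficient term-diff points lie above the points of every other group. Of the 14 rows, 12 were called for a rise in these cells, so that count follows in part from the choice of genes. Over all 79 rows the count was 29, or 36.7%, beside 7.60% of all genes.

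These calls rested on 2 libraries a group. The counts that follow were not set against the share of all genes called in the same fits. Without Cd69-deficient stem-like library 1, 1 row was called, without stem-like library 2, 3 were, without term-diff library 1, none was, and without term-diff library 2, 1 was. Leaving out wild-type term-diff library 2, which enters this comparison through the shared spread alone, left 8. Ndufa13 lost its Cd69-deficient call without any 1 of the 8 libraries. Ndufa7 lost its call under 17 of 21 alternatives, Uqcrb under 13 and Ndufv3 under 12. Sdhb kept its call under 19 of 21 alternatives, losing it without Cd69-deficient stem-like library 1 or term-diff library 1.

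Comparing the genotypes within a subset, no row passed the test. In stem-like cells the median difference (Cd69-deficient minus wild type) was 0.02, beside 0.06 for all genes, and 42 of 79 rows lay above 0. In term-diff cells it was 0.28, beside -0.05, and 69 of 79 rows lay above 0, against 42.0% of all genes. The background was low in both, with 0.153% of all genes called by limma in stem-like (0.0409% higher and 0.112% lower) and 0.194% in term-diff cells (0.112% higher and 0.0818% lower). With no overlap between libraries, 16 rows were higher and 9 lower in stem-like cells, against 26.3% and 11.5% of all genes. At an unadjusted p under 0.05 there were 5 of 79 rows in stem-like cells, where 7.26% of all genes were, and 24 in term-diff cells, where 15.1% were. By voom, another model of limma, on the implied fragments, 6 rows were called in term-diff and none in stem-like cells, beside 3.48% and 0.44% of all genes.

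Within term-diff cells, 50 of the 79 rows were higher and 5 lower in Cd69-deficient cells with no overlap between libraries, against 19.7% and 28.1% of all genes. All 28 accessory subunits of complex I lay above 0, from 0.06 to 1.17. The lowest adjusted p belonged to Ndufv3 (0.81 ± 0.18, adjusted p = 0.163), followed by Ndufa8 (0.49 ± 0.12, adjusted p = 0.178) and Uqcrq (0.56 ± 0.14, adjusted p = 0.179). The 5 lower rows without overlap did not form a complex. Medians by complex were 0.31 for complex I, 0.09 for complex II, 0.25 for complex III, 0.33 for complex IV and 0.26 for complex V. With the trend over mRNA length removed they were 0.11, 0.047, -0.0043, 0.0056 and 0.044 in the same order. The median over all rows was 0.15 without wild-type term-diff library 2 and 0.39 without library 1. By complex, in the same order, leaving out library 2 gave medians of 0.22, 0.079, 0.20, 0.18 and 0.079. This comparison shares its Cd69-deficient term-diff libraries with the subset comparison, so the pair are not independent.

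The pattern can be described from the levels alone. The mean of the Cd69-deficient term-diff group was the highest of the 4 for 61 of 79 rows, against 5, 5 and 8 for wild-type stem-like, Cd69-deficient stem-like and wild-type term-diff. That count was not made over all genes. Both Cd69-deficient term-diff libraries stood above all other 6 in 29 rows, or 36.7%, where 7.60% of all genes did. The median level of the 79 rows was 21.1 and 20.0 FPKM in these libraries and 14.4 to 16.6 in the other 6. The test of whether the subset difference itself differed between the genotypes called none of the 79 by limma, nor by voom, and limma called 0.0307% of all genes (0.0204% higher and 0.0102% lower). At an unadjusted p under 0.05 there were 16 rows, beside 9.09% of all genes. Its median over the rows was 0.21, beside -0.10 for all genes.

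The length of the mRNA moved with this shift. Subunits of oxidative phosphorylation are mostly small proteins, so most of their mRNAs are short. In Cd69-deficient cells the median difference between the subsets was 0.37 for the 15 rows of up to 600 nt and 0.40 for the 114 other genes of that length. From there to 1000 nt it was 0.40 for 27 rows and 0.25 for 407 others, and from 1000 to 2000 nt it was 0.24 for 24 rows and 0.06 for 1882 others. Over 2000 nt it was 0.06 for 13 rows and -0.08 for 6690 others. Short genes at large were thus higher in Cd69-deficient term-diff libraries, and the rows here had higher medians than other genes in the 3 longer classes but not in the shortest.

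**Figure D4:**
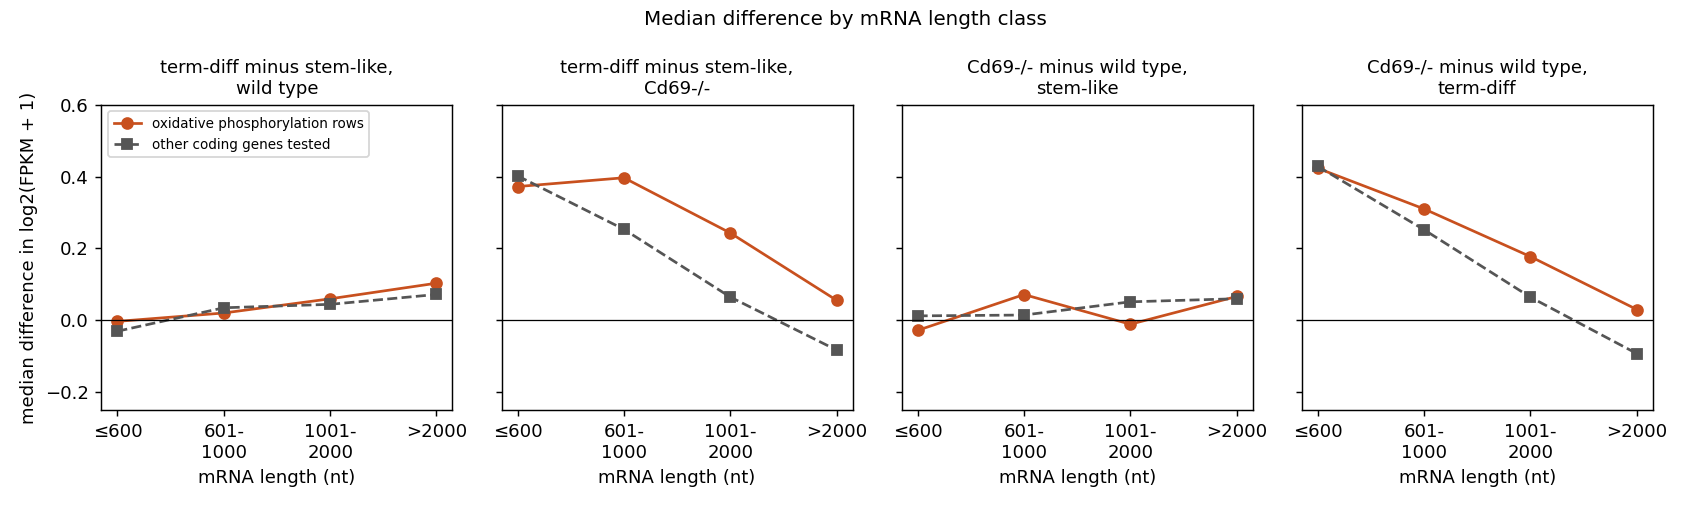
Median difference in log2(FPKM + 1) by class of mRNA length for the 79 rows (circles) and the other coding genes tested (squares), in the 4 comparisons between groups. In the 2 comparisons that include Cd69-deficient term-diff cells both lines are lower in the longest than in the shortest class, with the rows at 0.37 and then 0.40 in the 2 shortest classes between the Cd69-deficient subsets, and both are nearly flat in the other 2.

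The same held between the genotypes in term-diff cells, where the median of the shortest class was 0.42 for the rows and 0.43 for other genes, and that of the longest class 0.03 and -0.09. In wild-type cells, and between genotypes in stem-like cells, every class median of the rows lay between -0.03 and 0.10. Of other genes of up to 600 nt, 28.1% had both Cd69-deficient term-diff libraries above the other 6, as had 40.0% of the rows of that length. From there to 1000 nt the shares were 24.8% of other genes and 44.4% of the rows, and from 1000 to 2000 nt 12.4% and 41.7%. Over 2000 nt they were 4.29% and 7.69%, the latter being 1 of 13 rows.

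With the trend of each library with length removed, the median difference between the Cd69-deficient subsets was 0.11, with 53 of 79 rows above 0 and 49.7% of all genes. The number of rows called there was 11 of 79, 8 higher and 3 lower, close to the 13.5% of all genes called after the same step. Of the 12 rises, 7 kept a call (Sdhb, Uqcrq, Cox7c, Atp5l, Ndufa13, Ndufs4 and Ndufv3), and Sdhd joined them. Sdhb was again the row with the lowest adjusted p (0.60 ± 0.10, adjusted p = 0.00337). Ndufa6 (-0.53 ± 0.12) and Ndufs3 (-0.38 ± 0.11) were then called lower beside Sdhaf1. Between genotypes in term-diff cells the median fell to 0.07, and for the interaction to 0.05. In wild type 9 of 79 rows were called after this step, a smaller share than the 19.3% of all genes, among them Atp5o (0.44 ± 0.11), Cox5b (0.41 ± 0.12) and Ndufb7 (0.41 ± 0.09) higher and Ndufa6 (-0.73 ± 0.12) lower in term-diff cells. The part of length in the differences as deposited was not tested beyond these values.

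Promoter sequence was examined because many rows moved together and because NRF1, GABPA, YY1 and ESRRA are known regulators of respiratory genes. RefSeq (GRCm38.p6) gave a promoter for 65 of the 79 rows, and the 250 bases before each start were searched on both strands. The NRF1 motif (GCGCA, any base, then GCGC) was present in 12 of the 65, or 18.5%, and in 4.23% of 27025 genes. The latter are all genes with a promoter entry, whether or not expressed in these cells. The ETS motif CCGGAAGT, which GABPA binds, was present in 4.62% against 3.23%, the YY1 motif AANATGGCG in 6.15% against 1.29%, and the ESRRA motif TNAAGGTCA in 3.08% against 1.302%. NRF1 and YY1 motifs thus had the larger excess over all genes, on small numbers of promoters. Shares among the genes expressed here were not computed, so the part of expression in this excess was not tested. None of the 4 motifs contains another, and the NRF1 motif can match the same bases on both strands.

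Of the 12 rows that rose in Cd69-deficient term-diff cells, 10 had a promoter, and 2 of them, Cox6a1 and Ndufa8, held the NRF1 motif. They are printed beside Sdha, which held 3 copies (the 2 farther from the start are shown) and was not called, to show that matches to the motif stood before rows with either behaviour. Each window runs 5′ to 3′ on the gene's strand, with the NRF1 motif in capitals. In Ndufa8 the motif lies on the other strand, so the capitals are its reverse complement.
Cox6a1, 152 bases before the start, chr5:115349086-115349145, minus strand: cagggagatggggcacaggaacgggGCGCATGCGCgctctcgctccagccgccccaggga
Cox6a1, 107 bases before the start, chr5:115349041-115349100, minus strand: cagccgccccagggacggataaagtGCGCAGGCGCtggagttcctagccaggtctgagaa
Ndufa8, 20 bases before the start, chr2:36049339-36049393, minus strand: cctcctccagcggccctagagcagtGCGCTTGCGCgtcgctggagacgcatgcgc
Sdha, 88 bases before the start, chr13:74350304-74350363, minus strand: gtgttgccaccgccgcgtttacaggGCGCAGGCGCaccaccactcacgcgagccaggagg
Sdha, 45 bases before the start, chr13:74350261-74350320, minus strand: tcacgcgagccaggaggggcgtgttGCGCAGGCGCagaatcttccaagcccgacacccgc
A match is a description of these letters and shows neither binding nor regulation. Of the other rows that rose, Ndufa7 held a YY1 motif 9 bases before the RefSeq start, and Uqcrb and Uqcrq had no entry.

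Other mitochondrial genes were read as a background for the subunits. The electron carrier Cycs, the complex III subunit Cyc1, the ATP synthase subunit Usmg5 and the ATP synthase inhibitor Atpif1, which the name rule does not take, had a median of 0.27 between the Cd69-deficient subsets, with none called. The 22 assembly factors had a median of 0.01 and 1 call. That was Tmem126b, a complex I assembly factor, at 0.53 and 0.717 FPKM in the stem-like and 1.76 and 2.32 in the term-diff libraries (0.90 ± 0.18, adjusted p = 0.0204). The 18 genes of pyruvate entry and the TCA cycle had a median of -0.06 and none called there, and in wild type Idh2, a mitochondrial isocitrate dehydrogenase, fell by 0.63 ± 0.17 (adjusted p = 0.0423). Fatty acid oxidation (14 genes) stood at 0.11 and import, carriers and dynamics (24 genes) at 0.06, with none called in either.

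Ribosomal proteins and proteasome subunits were read in the same way. The 77 cytosolic ribosomal proteins had a median of 0.15 between the Cd69-deficient subsets, -0.31 in wild type, with 2 called lower there, and 0.43 between genotypes in term-diff cells, with none called. The 74 rows with names of mitochondrial ribosomal proteins had a median of 0.12, with 4 called higher in Cd69-deficient cells. They were taken by name alone, and whether each, Mrps36 included, is a part of the ribosome was not checked. Mrps36, 1 of the 4, was at 2.84 and 3.80 FPKM in the stem-like and 7.43 and 10.3 in the term-diff libraries (1.19 ± 0.18, adjusted p = 0.00625). The proteasome list, also taken by name alone (Psma to Psmd), held 38 rows, Psmc3ip among them, with a median of 0.21. Of these, Psmb2 (0.67 ± 0.15, adjusted p = 0.0309) and Psmb4 (0.60 ± 0.13, adjusted p = 0.0265) were called higher. The 12 regulators of mitochondrial biogenesis had a median of -0.04 between the Cd69-deficient subsets and -0.21 between genotypes in term-diff cells. In the latter all 12 lay below 0, where 42.0% of all genes lay above 0, and none was called. Nrf1 itself was at 0.06 and -0.33 and Ppargc1b, a coactivator, at -0.50 and -0.34 in these comparisons. The gene lists here and above were not matched to the 79 rows for mRNA length.

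**Figure D5:**
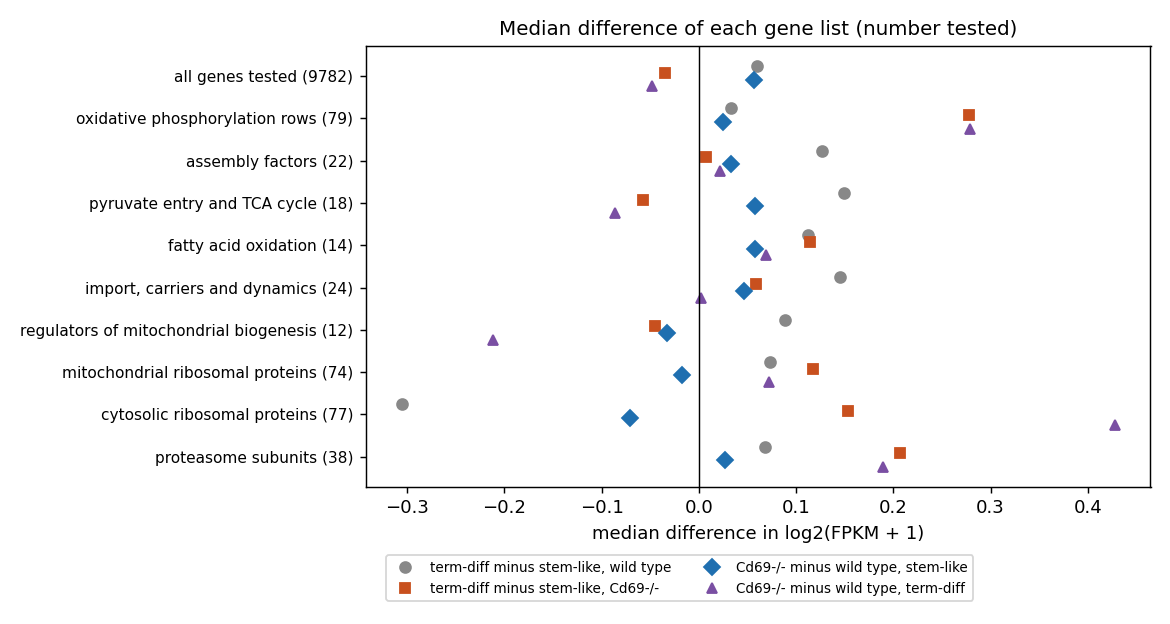
Median difference in log2(FPKM + 1) of the 79 rows, of all genes tested and of 8 other gene lists in the 4 comparisons between groups, with the number of genes tested in brackets. The oxidative phosphorylation rows lie at 0.28 in both comparisons that include Cd69-deficient term-diff cells, and cytosolic ribosomal proteins reach 0.43 between genotypes in term-diff cells.

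Markers of the cells themselves were read beside these values. Of the 5 CD8 T cell markers, 2 stood higher in both Cd69-deficient term-diff libraries than in all others. Cd3g was at 605 and 576 FPKM in Cd69-deficient term-diff libraries and at 346 to 441 in the other 6, and Cd3d at 39.7 and 37.0 against 18.5 to 30.1. Cd3e, at 220 and 204 against 184 to 234, Cd8a, at 166 and 129 against 126 to 155, and Cd8b1, at 167 and 139 against 76.1 to 141, did not stand apart, and none of the 5 was called between the Cd69-deficient subsets. The summed level of 6 proliferation genes was 238 and 256 FPKM in wild-type term-diff, 195 and 224 in Cd69-deficient term-diff and 130 to 176 in the 4 stem-like libraries. All 6 had a difference above 0 between subsets in both genotypes, of which 3 were called higher in wild type and none in Cd69-deficient cells. The 3 NK markers summed to 36.6 and 35.03 FPKM in Cd69-deficient term-diff libraries and to 14.3 to 26.7 in the other 6, nearly all of it Klre1. Ncr1, at 0.375 FPKM or less, and Klrb1c, at 0.195 or less, were near 0 and showed no such order. The 6 myeloid markers summed to 2.15 to 7.53 and the 2 erythroid markers to at most 1.34. The 5 CD4 and regulatory T cell markers summed to 75.7 to 122, most of it Ctla4, at 62.4 to 107. Il2ra was at most at 14.7, Ikzf2 at 9.40, Cd4 at 5.52 and Foxp3 at 1.14. The 6 tumour and stroma markers, nearly all of it Pecam1, summed to 5.28 and 4.79 in Cd69-deficient term-diff libraries, 6.95 and 6.46 in wild-type term-diff and 11.3 to 14.9 in stem-like libraries. No marker in these lists was at 0 in all 8 libraries. The part of any of these in the subunit differences was not tested.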

How the data were processed

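Total RNA of sorted cells was made into libraries with a SMARTer stranded low-input kit and read single-end, per the labels' protocols. The authors deposited 1 gene table a library, with expression in FPKM and its confidence limits per the file headers. Per the submitters' processing notes, Cufflinks 2.2.1, TopHat 1.3.2, Bowtie2 2.3.4 and bcl2fastq 2.20 were used with the build mm10; annotation, strand setting and FPKM total are not given in the sources used here. No read counts were used. The square of 2 times the FPKM over its distance to the upper limit gave implied fragments, a measure of counting error only.

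Values were analysed as log2(FPKM + 1), without rescaling, for rows of at least 1 FPKM in at least 2 libraries. The means of the 4 groups were modelled in limma 3.58.1 (R 4.3.3, empirical Bayes with trend, 4 residual degrees of freedom), 2-sided, with Benjamini-Hochberg adjustment over 9782 genes and a threshold of 0.05; it was checked on simulated data. mRNA length was the longest coding transcript in the GENCODE annotation, found for 93.8% of genes tested and for all 79 rows.

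Members, lists and tests were chosen with earlier results of these data known. Rows named were those called, those with the highest and lowest level or largest difference in a complex, and isoform families; some were left out for length. Other genes were named where called or largest in their list; Ndufa9, Ndufa12, Atp5j, Atp5o, Cox5b and the markers shown were chosen after their values were seen. Kinases, a binding protein and pseudogenes with ribosomal names were left out of the cytosolic ribosomal list. The mitochondrial ribosomal and proteasome lists were taken by name and not cleared in this way. Alternatives changed the pseudocount, filter, scaling, variance model, tested value, replicate block, libraries and, chosen after seeing the data, the trend with mRNA length.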

Additional observations from a re-analysis of the deposited data

Results flagged for a closer look

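For 11 of the 79 rows the libraries moved in opposite directions without overlap. They did so either between subsets in the 2 genotypes or between genotypes in the 2 subsets. Among all genes the share was 10.6%, close to that of the rows, so the rows named below do not stand out as a set. The test of the difference itself (interaction, limma) called none, with adjusted p from 0.539 to 0.584.

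Between genotypes, several subunits were lower in Cd69-deficient stem-like and higher in Cd69-deficient term-diff cells. The interaction was 1.05 for Atp5l, 0.98 for Atp5j2, 1.39 for Ndufa7, 0.49 for Sdhb, 1.00 for Uqcrb and 0.77 for Uqcrq. Ndufa12, an accessory subunit of complex I, had the same pattern at 0.33. Cox7a1 had the opposite one at -2.14, on at most 4 fragments a library.

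Between subsets, Atp5j2, Ndufa7 and Uqcrq again moved in opposite ways, lower in wild-type and higher in Cd69-deficient term-diff cells. Atp5j, of the ATP synthase peripheral stalk, did so at 0.44 and Ndufa9 at 0.28. Ndufs3 moved the other way, higher in wild-type and lower in Cd69-deficient term-diff cells, at -0.49.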

How the results depend on the processing

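No called row reversed under any alternative; 205 values of single rows held their call and 130 lost it. In Cd69-deficient cells the number of rows called between subsets (13) was 1 with no filter on low values, 7 with quantile normalization, 6 with an equal sum outside small RNA, 8 with no trend, 22 by voom on implied fragments (16.7% of all genes) and 0 to 12 leaving out a library. In wild type the number (3) was 1 with no filter, 5 with quantile normalization, 9 with the length trend removed, 0 without both wild-type replicate 2 libraries and 0 to 4 leaving out a library. Between genotypes in term-diff cells it was 6 by voom. Without a filter 22397 genes were tested. Apart from voom, shares of all genes called are not given beside these counts or the count with a replicate block. They therefore do not show whether calls changed for these rows more than for genes at large.

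The median between the Cd69-deficient subsets (0.28) was 0.16 with an equal sum and 0.11 with the length trend removed, and 0.24 to 0.35 leaving out a library. Between genotypes in term-diff cells (0.28) it was 0.17, 0.067 and, without both wild-type replicate 2 libraries, 0.15, and 0.15 to 0.39 leaving out a library. For the interaction (0.21) it was 0.30 at 5 FPKM or more, 0.34 with median-of-ratios scaling, 0.30 with quantile normalization, 0.13 with an equal sum, 0.39 by voom, 0.075 without both replicate 2 libraries, 0.055 with the length trend removed and 0.094 to 0.38 leaving out a library. In wild type (0.03) it was 0.16 without both replicate 2 libraries and -0.0080 to 0.13 leaving out a library; between genotypes in stem-like cells (0.02) it was -0.075 with quantile normalization and -0.050 to 0.12 leaving out a library. The causes were not tested.

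With the replicate number as a block, 6 rows were called in Cd69-deficient cells. Deviations of same-numbered libraries correlated from -0.30 to 0.15 between groups. With 2 libraries a group, such values cannot tell whether same-numbered libraries share a mouse.

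An equal sum outside small RNA moved the median of all genes to -0.13 between the Cd69-deficient subsets. With 2 libraries a group and a median of 76.2 fragments a row, small differences were not detectable.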
